A study of Mus musculus with 12 samples.

Results

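The collagen genes of the mouse were followed in 12 RNA sequencing libraries made from macrophages that had been isolated from tumours (tumour-associated macrophages, TAMs). Members were all genes whose mouse symbol reads Col, a number, the letter a and a number, found by matching the Ensembl gene identifiers of the count tables to symbols. This gave 44 of the 36439 genes counted. The tumours were subcutaneous Lewis lung carcinomas, from a mouse lung cancer line that is passed between C57BL/6 mice, and the libraries formed 4 groups of 3. The MRC1+ TAMs carried the macrophage surface protein F4/80 and the mannose receptor MRC1, and the CD11c+ TAMs carried F4/80 and the integrin CD11c. The miR-511-3p TAMs were F4/80+ cells that overexpressed this microRNA, and the mutated miR-511-3p TAMs were F4/80+ cells that overexpressed a mutated form of it. The titles of both overexpression groups begin with SFFV, which the labels do not explain, and no source used here gives the sequence of the mutated form. Age, sex and the number of mice or tumours per library are likewise not given.

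Collagens are proteins of 3 chains wound into a helix that builds fibrils, networks or filaments outside the cell. Each gene encodes a single chain, and the collagen type follows from which chains assemble. Prolyl and lysyl hydroxylases and the chaperone HSP47 modify and fold the chains in the endoplasmic reticulum, and proteases then trim the ends of the fibril-forming types before lysyl oxidases cross-link them. In tumours fibroblasts are the main source of fibrillar collagen, endothelial cells and pericytes lay down basement membrane collagen, and macrophages are known for taking up and degrading collagen, in which the mannose receptor takes part.

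The sorted libraries (MRC1+ and CD11c+) held 10824918 to 17689064 reads in genes each, and the overexpression libraries 22906418 to 27890433. The labels do not say whether numbered replicates are separate mice, so the p-values reflect the spread of these libraries alone, and that spread may be technical. Levels are CPM, the share of a library's counted reads that a gene holds, with TMM factors from edgeR set within each comparison. Fold changes are log2 values of MRC1+ over CD11c+ TAMs or of miR-511-3p over mutated miR-511-3p TAMs, with a standard error (SE) derived from edgeR's F statistic. A gene passed where its p in edgeR's quasi-likelihood test, adjusted by Benjamini and Hochberg over all genes tested, was under 0.05. In bulk libraries fewer cells of a type and less RNA per cell cannot be told apart.

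Collagen reads were a small part of every library and were spread unevenly over the replicates. The 44 genes together reached 2063, 1833 and 1946 CPM in the MRC1+ libraries, against 2350, 736 and 739 CPM in the CD11c+ libraries. They summed to 266, 234 and 535 CPM in the miR-511-3p libraries, against 392, 389 and 1133 CPM in the mutated miR-511-3p libraries. The first CD11c+ library and the third library of each overexpression group thus stood far above the other 2 of their group, while the MRC1+ libraries lay close together.

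These libraries stood apart across most of the family. Of the 27 collagens tested between the sorted groups, 21 were highest of the CD11c+ libraries in the first one, where 33.7% of all genes tested were, and 17 lay more than 2-fold above both others there, against 3.23% of all genes. Of the 24 tested between the overexpression groups, 22 were highest in the third miR-511-3p library, and 22 in the third mutated library. They lay more than 2-fold above both others for 15 and 16 collagens, against 1.64% and 3.63% of all genes. In all 3 libraries this held for 14 members, among them Col1a1, Col3a1, Col5a1, Col6a1 and Col4a1. For 8 members, Col9a3, Col10a1, Col11a2, Col14a1, Col15a1, Col17a1, Col20a1 and Col27a1, no library of the 3 stood out in this way.

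The same libraries held the most transcripts of fibroblast markers. A list of 16 such genes without collagens, among them Pdgfra, Dcn, Lum and Prrx1, summed to 484, 457 and 472 CPM in the MRC1+ libraries, against 629, 178 and 173 CPM in the CD11c+ libraries. It summed to 36.6, 38.1 and 89.5 CPM in the miR-511-3p libraries, against 77.1, 65.8 and 252 CPM in the mutated libraries. The ratio of the collagen sum to the fibroblast sum varied less than either, from 4.01 to 4.26 in MRC1+ and 3.74 to 4.27 in CD11c+ libraries, and from 5.98 to 7.28 in miR-511-3p and 4.49 to 5.91 in mutated miR-511-3p libraries. The 8 carcinoma and epithelial markers summed to 150.6 to 219 CPM in MRC1+, 124 to 178 CPM in CD11c+, 17.6 to 29.8 CPM in miR-511-3p and 20.7 to 45.5 CPM in mutated libraries, with Cldn4 at 0 in 10 libraries. The genes of this list did not move together, since Cdh1 held 3.69 to 6.09 CPM in MRC1+ libraries, against 51.5 to 65.6 CPM in CD11c+ libraries. Krt8, Krt18 and Hmga2 together held 143, 213 and 189 CPM in MRC1+ and 124, 77.3 and 56.1 CPM in CD11c+ libraries. They held 10.8, 12.8 and 16.8 CPM in miR-511-3p and 18.6, 14.8 and 39.2 CPM in mutated libraries. The sum of these genes was thus also highest in the libraries that stood apart. Krt18 alone was higher in the second miR-511-3p library than in the third, at 0.677 against 0.601 CPM. The sum of all 8 markers was highest in the first miR-511-3p library, at 29.8 CPM against 23.9 CPM in the third. Cdh1 was lowest of the CD11c+ libraries in the first. The 10 endothelial markers summed to 43.4 to 52.6 CPM in MRC1+, 93.3 to 139 CPM in CD11c+, 53.5 to 80.5 CPM in miR-511-3p and 43.3 to 99.2 CPM in mutated libraries. The 8 pericyte and smooth muscle markers summed to 23.0 to 28.3 CPM in MRC1+, 9.71 to 16.3 CPM in CD11c+, 28.0 to 41.7 CPM in miR-511-3p and 34.4 to 51.7 CPM in mutated libraries. Cspg4 alone made up most of this sum in the overexpression libraries. The 7 others summed to 11.1 to 15.7 CPM in MRC1+, 6.07 to 11.1 CPM in CD11c+, 1.0004 to 2.14 CPM in miR-511-3p and 1.57 to 1.85 CPM in mutated libraries. Of the fibroblast markers only Mfap5 was at 0 anywhere, in 1 library. The part of these cells in the collagen results was not tested. The genes behind the labels were checked in all groups. Adgre1, the gene of F4/80, had a mean of 1115 CPM in MRC1+, 641 CPM in CD11c+, 1200.4 CPM in miR-511-3p and 1099 CPM in mutated miR-511-3p TAMs. Mrc1 averaged 3777 CPM in MRC1+ and 1615 CPM in CD11c+ TAMs, and Itgax, the gene of CD11c, 102 CPM in MRC1+ and 988 CPM in CD11c+ TAMs. In miR-511-3p and mutated miR-511-3p TAMs Mrc1 averaged 2316 and 1895 CPM, and Itgax 180 and 193 CPM. Mir511, which encodes the hairpin of miR-511-3p, had 63 to 80 reads in miR-511-3p libraries, against 3 to 9 reads in mutated libraries. It had 11 to 16 reads in MRC1+ and 0 to 5 reads in CD11c+ libraries.

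**Figure D1:**
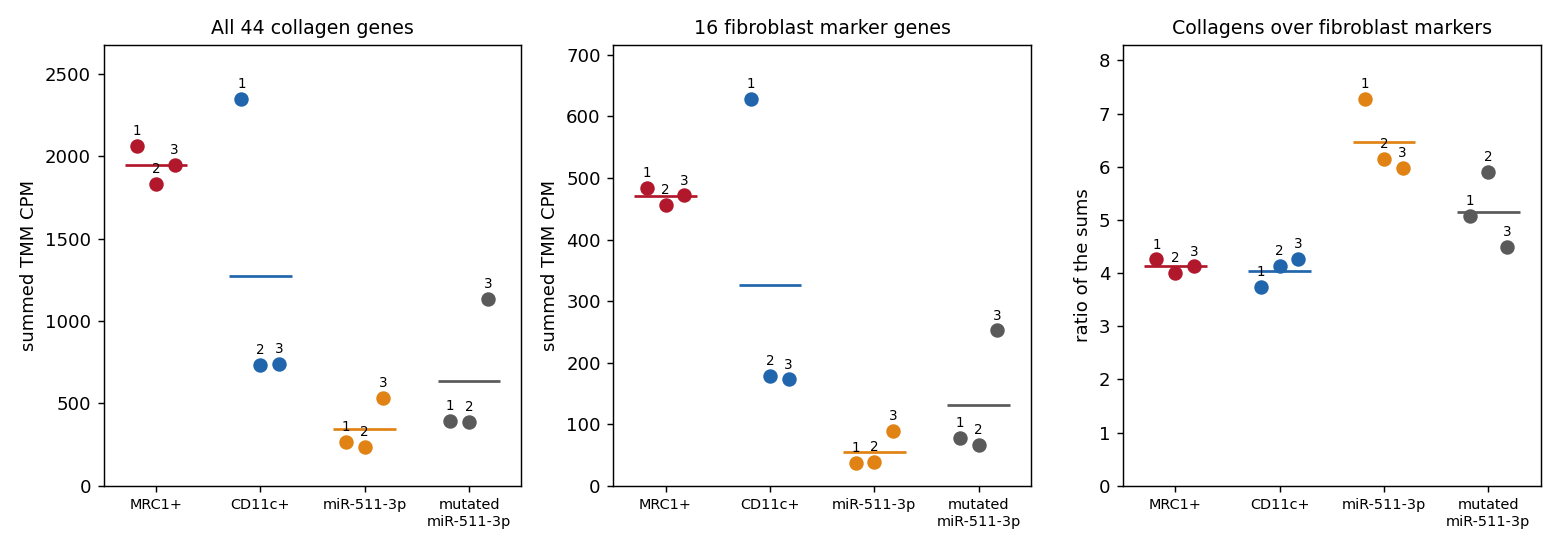
Summed TMM CPM of the 44 collagen genes (left) and of 16 fibroblast marker genes (middle), and the ratio of the sums (right), in each library; points are libraries with their replicate number, and lines are group means. CD11c+ replicate 1 and replicate 3 of both overexpression groups lie above the rest of their group in the first and the second panel, and the ratio stays between 3.74 and 7.28 in all 12 libraries.

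All 44 members had at least 1 read, and 27 of them averaged at least 1 CPM in at least 1 group. The other 17 stayed under 1 CPM in every group and were not tested in the main fit of either comparison. Among them were Col2a1 and Col11a1, the major chains of cartilage fibrils, with 26 and 3 reads over the 12 libraries, and Col9a1 and Col26a1 with 2 reads each. Between genes, levels were compared per kilobase of exon. The highest was Col3a1, the single chain of type III collagen, at 50.1 CPM per kilobase in MRC1+ and 39.3 in CD11c+ TAMs, followed in MRC1+ TAMs by the type IV chain gene Col4a1 at 40.2 and the type VI chain gene Col6a1 at 35.4. Col3a1 took a mean of 25.1% of all collagen reads in MRC1+, 28.4% in CD11c+, 26.9% in miR-511-3p and 33.6% in mutated miR-511-3p libraries. Such shares are means of the shares in the single libraries. Col1a1, the main chain of type I collagen, stood far below Col3a1, at 2.61 CPM per kilobase in MRC1+ and 1.63 in CD11c+ TAMs.

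Col14a1 had another order. It encodes a collagen that binds to the surface of fibrils. With 12.6 CPM per kilobase of exon it was the highest member in miR-511-3p TAMs, above Col3a1 at 10.002. Its share of collagen reads averaged 27.6% over these libraries, but pooled over them Col3a1 had more reads, 7618 against 6723. For the group means the rank of Col14a1 rests on the exon length, 7013 bases for Col14a1 and 9816 for Col3a1. Unscaled, Col3a1 had the higher mean, at 98.2 CPM against 88.3 CPM, through the third library. There Col3a1 stood at 175 CPM and Col14a1 at 107 CPM. In the first and the second Col14a1 was higher also unscaled, at 90.4 and 67.9 CPM against 60.3 and 58.9 CPM. The coding sequence of Col3a1 is also shorter, at 4392 bases against 5423, so its mean per kilobase of coding sequence ranks above that of Col14a1. In mutated miR-511-3p TAMs Col14a1 stood at 10.6 CPM per kilobase of exon, with 14.9% of collagen reads. It stood at 5.55 CPM per kilobase in MRC1+ TAMs, with 1.98% of collagen reads, and at 3.33 in CD11c+ TAMs, with 2.16%. Of the 27 named members, 22 had a higher mean CPM in both sorted groups than in both overexpression groups, and this number was 22 also when all 12 libraries were scaled together. No share over all genes is set beside this number, so it is not read as a trait of collagens. Col17a1, a transmembrane collagen of epithelial hemidesmosomes, and Col10a1, a collagen of hypertrophic cartilage, averaged 2.49 and 1.57 CPM in MRC1+ and 2.13 and 1.34 CPM in CD11c+ TAMs. They stayed at or below 0.213 CPM in every overexpression library. The sorted and the overexpression cells were gated differently and the labels do not say that they were processed together, so no test was made between them. Their libraries also differed in the share of reads that fell in no gene, at 19.7% to 26.6% in sorted and 7.64% to 10.4% in overexpression libraries.

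**Figure D2:**
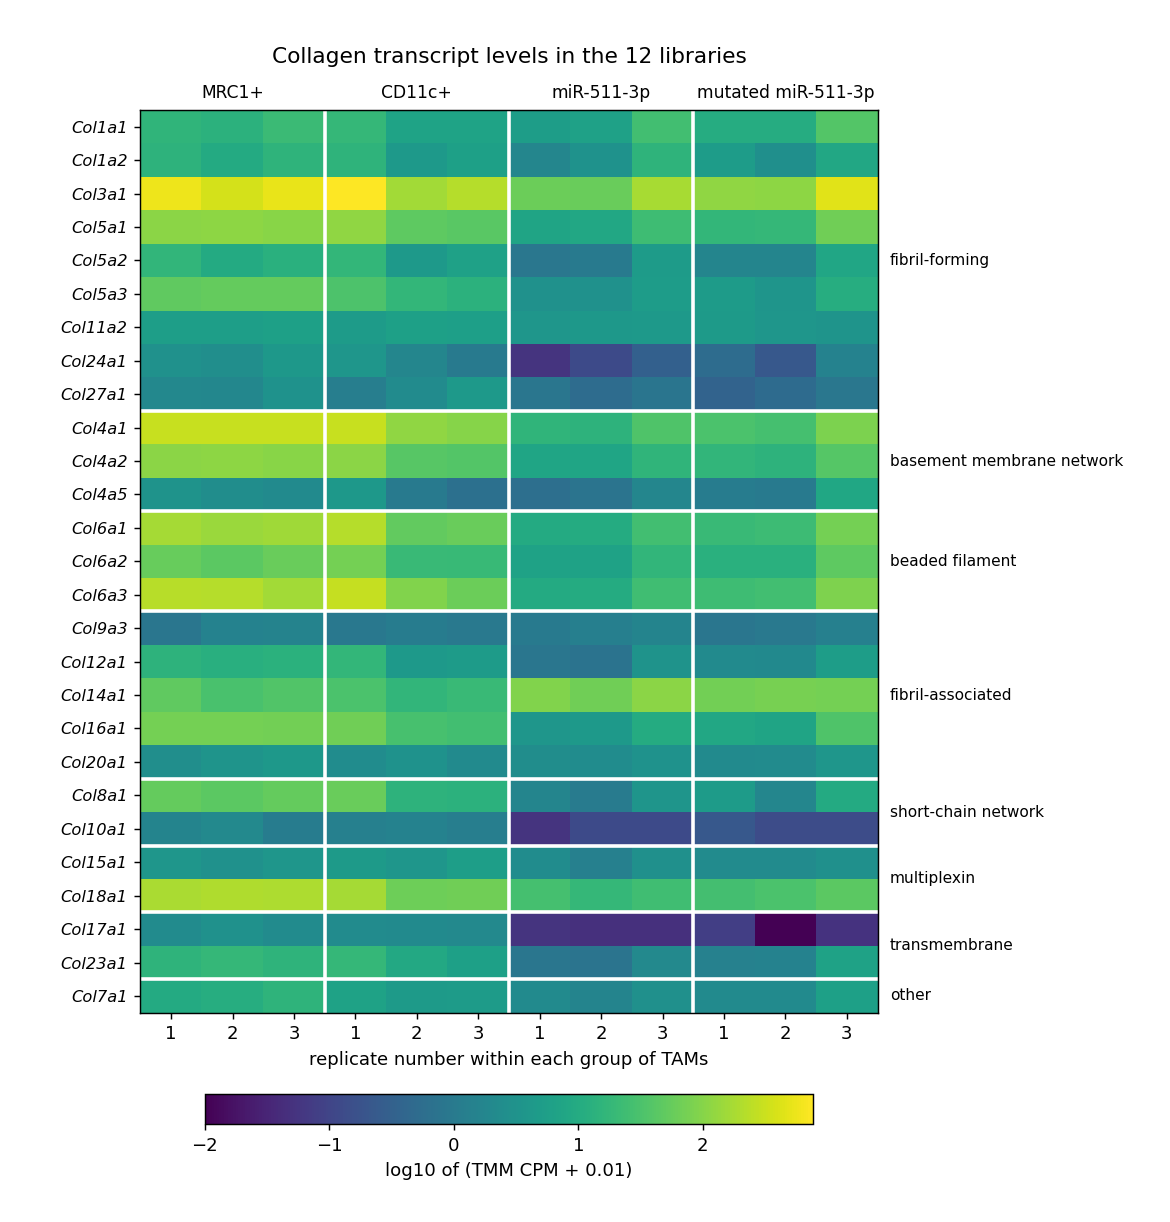
Log10 of TMM CPM plus 0.01 of the 27 named collagens (rows, grouped by structural class) in each library (columns, by group and replicate number). Col3a1 and Col4a1 are among the brightest rows of the sorted groups, Col14a1 is brighter in the overexpression groups than in the sorted groups, and Col10a1, Col17a1 and Col24a1 are darkest in the overexpression groups.

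The first comparison set MRC1+ against CD11c+ TAMs, which separates tumour macrophages by their surface receptors. Col5a3, a minor chain of type V collagen, and Col7a1, the chain of the anchoring fibrils that tie basement membranes to the tissue below, rose in MRC1+ TAMs, by 2.44-fold and 2.26-fold. No collagen fell. Of the 27 tested members, 2 passed in the higher direction, where 6.91% of all 15622 genes tested did, so their share of calls was near the background. In the lower direction 9.71% of all genes passed. For 4 members, Col5a3, Col7a1, Col16a1 and Col18a1, every MRC1+ library lay above every CD11c+ library, which held for 18.7% of all genes. The opposite order held for 0 members and 19.6% of all genes. By direction alone, 25 of 27 members lay above 0, against 51.5% of all genes, with a median log2 fold change of 0.52 against 0.01 over all genes. DESeq2 passed 3 of the 44 members it gave a p, Col14a1 being added, where 7.19% of 16613 genes with an adjusted p passed higher. Without a filter on low counts edgeR passed 6 of 44 members, where 5.59% of genes passed higher.

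Col5a3 (ENSMUSG00000004098) stood at 50.1, 53.8 and 53.9 CPM in MRC1+ libraries, against 32.8, 17.5 and 13.7 CPM in CD11c+ libraries. All MRC1+ libraries lay above all CD11c+ libraries, of which the first was the highest. Its log2 fold change was 1.29 ± 0.27 (SE, n = 3 each), with an adjusted p of 0.0160 in edgeR's test. Col7a1 (ENSMUSG00000025650) stood at 9.82, 11.2 and 14.9 CPM in MRC1+ libraries, against 6.45, 4.59 and 4.73 CPM in CD11c+ libraries. Here too the groups did not overlap, and the log2 fold change was 1.18 ± 0.21 with an adjusted p of 0.00794 in the same test. Col7a1 passed in every alternative fit, with adjusted p from 3.82e-05 to 0.0379. Col5a3 did not pass without any 1 of the MRC1+ libraries (adjusted p = 0.0509, 0.0592 and 0.0606, in replicate order) or without the second CD11c+ library (adjusted p = 0.0629).

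The sequence upstream of both genes is shown because they alone passed, with that of Col3a1, the member with the most reads, beside them. Each is the 250 bases before the start annotated in RefSeq (GRCm38.p6), read 5′ to 3′ on the strand of the gene. Capitals mark GC boxes (GGGCGG or its reverse complement CCGCCC), the box of letters CCAAT (or ATTGG on the other strand) and TATA boxes (TATAAA or TTTATA).
Col5a3, chr9:20815068-20815317, minus strand: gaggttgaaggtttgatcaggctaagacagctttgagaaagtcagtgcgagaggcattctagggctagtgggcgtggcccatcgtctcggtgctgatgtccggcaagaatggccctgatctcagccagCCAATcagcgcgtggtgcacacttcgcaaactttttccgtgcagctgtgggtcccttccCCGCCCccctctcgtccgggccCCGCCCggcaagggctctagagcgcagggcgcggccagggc
Col7a1, chr9:108953336-108953585, plus strand: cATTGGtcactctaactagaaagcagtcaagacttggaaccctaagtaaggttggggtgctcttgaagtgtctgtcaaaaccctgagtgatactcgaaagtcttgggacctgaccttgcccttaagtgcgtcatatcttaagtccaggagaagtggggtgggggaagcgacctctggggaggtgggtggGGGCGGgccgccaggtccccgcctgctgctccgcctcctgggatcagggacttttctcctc
Col3a1, chr1:45311288-45311537, plus strand: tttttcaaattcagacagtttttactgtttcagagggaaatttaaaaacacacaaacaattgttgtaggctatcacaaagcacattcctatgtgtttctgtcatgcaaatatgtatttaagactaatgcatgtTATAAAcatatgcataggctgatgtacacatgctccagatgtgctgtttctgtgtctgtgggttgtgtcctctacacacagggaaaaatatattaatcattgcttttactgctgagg

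The Col5a3 window holds 2 GC boxes and 1 CCAAT box, the Col7a1 window 1 of each, and the Col3a1 window 1 TATA box and neither of the others. Windows were found for 35 members, 38 windows in all. A GC box was in 57.9% of them, against 32.7% of 32851 windows of all genes. A CCAAT box was in 34.2% against 33.8%, and a TATA box in 13.2% against 12.4%. These matches describe the letters and show no binding.

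Among the other fibril-forming collagens Col3a1 (ENSMUSG00000026043) stood at 566, 374 and 535 CPM in MRC1+ libraries, against 770.2, 165 and 221 CPM in CD11c+ libraries. The first CD11c+ library was the highest of all 6 and the groups overlapped, with a log2 fold change of 0.35 ± 0.51 (adjusted p = 0.677 by edgeR). Col5a1, the main chain of type V collagen, which starts fibrils, stood at 109.8, 115 and 105 CPM in MRC1+ libraries, against 120.0, 47.3 and 42.4 CPM in CD11c+ libraries. Its partner Col5a2 stood at 16.3, 9.91 and 12.7 CPM in MRC1+ libraries, against 16.9, 4.23 and 6.18 CPM in CD11c+ libraries. Both showed the first CD11c+ library above every MRC1+ library, and their log2 fold changes were 0.64 ± 0.35 and 0.48 ± 0.46. Col1a1 stood at 15.9, 14.1 and 21.5 CPM in MRC1+ libraries, against 18.2, 6.97 and 6.90 CPM in CD11c+ libraries. Col1a2, its partner in type I collagen, stood at 14.5, 9.54 and 15.1 CPM in MRC1+ libraries, against 15.1, 4.47 and 5.87 CPM in CD11c+ libraries. Again the groups overlapped through the first CD11c+ library alone, with log2 fold changes of 0.65 ± 0.37 and 0.59 ± 0.42. None of these 5 passed (adjusted p from 0.239 to 0.677).

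The basement membrane chains Col4a1 and Col4a2, which join into the type IV network around vessels and epithelia, had nearly the same profile. Col4a1 (ENSMUSG00000031502) stood at 299, 305.7 and 296 CPM in MRC1+ libraries, against 301, 118 and 99.3 CPM in CD11c+ libraries. Col4a2 (ENSMUSG00000031503) stood at 109, 116 and 105 CPM in MRC1+ libraries, against 108, 42.0 and 37.2 CPM in CD11c+ libraries. The MRC1+ libraries were nearly level and the first CD11c+ library lay among them. The log2 fold changes of 0.79 ± 0.37 and 0.81 ± 0.36 did not pass (adjusted p = 0.172 and 0.155 by edgeR). Both genes lie head to head, and in RefSeq their annotated starts overlap by 22 bases. The 30 bases around this overlap are shown on the plus strand, the strand of Col4a2, with the overlap in capitals.
Col4a2 and Col4a1 starts, chr8:11312801-11312830 (GRCm38.p6): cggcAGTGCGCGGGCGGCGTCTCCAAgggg

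Type VI collagen, which forms beaded filaments in most connective tissues, had 3 chains above 10 CPM. Col6a1 stood at 169.7, 141 and 154 CPM in MRC1+ libraries, against 217, 51.2 and 59.0 CPM in CD11c+ libraries. Col6a2 stood at 57.3, 46.1 and 58.6 CPM in MRC1+ libraries, against 73.1, 20.6 and 19.7 CPM in CD11c+ libraries. Col6a3 stood at 226, 223 and 159 CPM in MRC1+ libraries, against 281, 92.0 and 60.4 CPM in CD11c+ libraries. For all 3 chains the first CD11c+ library was the highest and the other 2 CD11c+ libraries the lowest of the 6. The log2 fold changes were 0.50 ± 0.49, 0.50 ± 0.46 and 0.49 ± 0.49, and none passed (adjusted p from 0.485 to 0.529).

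Of the fibril-associated collagens, which sit on fibrils without forming them, Col16a1 stood at 73.3, 74.8 and 69.9 CPM in MRC1+ libraries, against 67.1, 29.0 and 25.2 CPM in CD11c+ libraries. The first CD11c+ library lay just below the MRC1+ libraries, and the log2 fold change of 0.84 ± 0.32 did not pass (adjusted p = 0.114 by edgeR). Col14a1 (ENSMUSG00000022371) stood at 49.6, 30.2 and 37.0 CPM in MRC1+ libraries, against 32.4, 16.8 and 20.8 CPM in CD11c+ libraries, and the groups overlapped in 1 library of each. Its log2 fold change of 0.73 ± 0.26 missed the threshold (adjusted p = 0.0912) and passed when the replicate number was taken as a block (0.76, adjusted p = 0.00395). Col12a1 stood at 14.4, 12.3 and 13.5 CPM in MRC1+ libraries, against 17.5, 4.47 and 4.84 CPM in CD11c+ libraries, with a log2 fold change of 0.55 ± 0.46 (adjusted p = 0.447).

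The remaining members above 10 CPM belong to the smaller classes. Col18a1 (ENSMUSG00000001435), a basement membrane collagen whose cut end is endostatin, stood at 186, 205 and 196 CPM in MRC1+ libraries, against 168, 64.6 and 66.5 CPM in CD11c+ libraries. The groups did not overlap, and the log2 fold change of 0.97 ± 0.34 missed the threshold (adjusted p = 0.0881 by edgeR) and passed with the block (1.12, adjusted p = 0.0470). Col8a1, a short-chain collagen of vessel walls, stood at 54.1, 45.5 and 52.9 CPM in MRC1+ libraries, against 59.6, 14.6 and 13.8 CPM in CD11c+ libraries, with a log2 fold change of 0.77 ± 0.50 (adjusted p = 0.317). Col23a1, a transmembrane collagen, stood at 15.2, 18.2 and 15.3 CPM in MRC1+ libraries, against 17.6, 8.76 and 6.07 CPM in CD11c+ libraries, with a log2 fold change of 0.56 ± 0.33 (adjusted p = 0.273). In both the first CD11c+ library lay among or above the MRC1+ libraries.

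The other 9 named members had a highest group mean between 1 and 10 CPM. Col11a2, a chain of cartilage fibrils, was nearly level, at 4.81 to 6.08 CPM over the 6 libraries with a log2 fold change of 0.04 ± 0.16. Col15a1, a relative of Col18a1, averaged 3.47 ± 0.445 CPM in MRC1+ and 4.57 ± 0.881 CPM in CD11c+ TAMs (SD, n = 3 each), with a log2 fold change of -0.39 ± 0.21 (adjusted p = 0.242). Col27a1 was the other member below 0, at -0.15 ± 0.45. Col4a5, Col9a3, Col10a1, Col17a1, Col20a1 and Col24a1 had log2 fold changes from 0.22 to 0.52, and none passed. Reads of Col10a1 and Col20a1 overlap those of Nt5dc1 and BX649560.1 in the annotation, and since the use of strand in the counting is not given, their levels are uncertain.

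Without the first CD11c+ library 20 of 27 collagens passed, all higher in MRC1+ TAMs, where 14.8% of all genes tested passed in that direction. Each library was left out in turn, but this fit is singled out because collagens and fibroblast markers were high in that library. Its removal raises their fold changes by construction, so these calls show the weight of that library and give no separate evidence of a difference. The median log2 fold change of the tested collagens was then 1.35, against 0.00 over all genes. The 20 comprised 7 of 9 tested fibril-forming genes, all 3 type IV, all 3 type VI, 3 of 5 fibril-associated genes, Col8a1, Col18a1, Col23a1 and Col7a1. Col3a1 reached 1.35 (adjusted p = 0.00170), Col4a1 1.46 (adjusted p = 5.22e-05), Col6a1 1.49 (adjusted p = 7.18e-05) and Col8a1 1.83 (adjusted p = 3.45e-05). Of the fibroblast markers 13 of 16 passed in the same fit, with a median of 1.46, where 0 of 16 had passed with all 6 libraries by edgeR (3 at an unadjusted p under 0.05, and 2 by DESeq2's adjusted p). With the replicate number as a block 4 collagens passed, Col5a3, Col7a1, Col14a1 and Col18a1, where 7.24% of all genes passed higher.

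**Figure D3:**
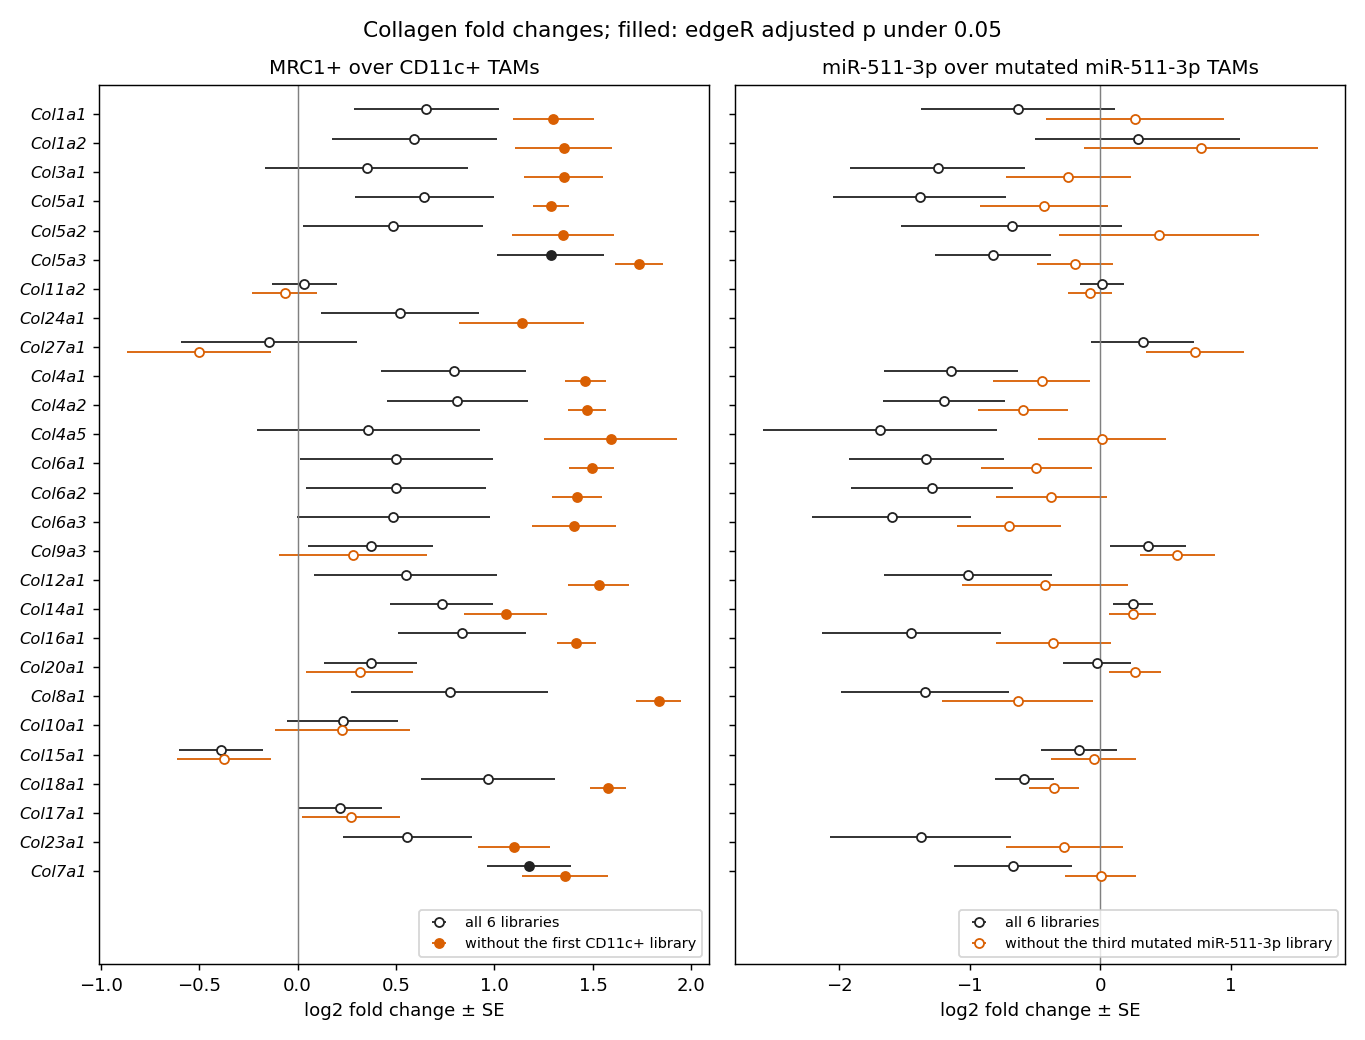
Log2 fold change with SE of the tested named collagens in MRC1+ over CD11c+ TAMs (left) and miR-511-3p over mutated miR-511-3p TAMs (right), with all 6 libraries (black) and without 1 library (orange); filled points have an edgeR adjusted p under 0.05. The library left out on each side is one in which most tested collagens were the highest of their group, so the orange points are no separate evidence. On the left only Col5a3 and Col7a1 are filled in black, and 20 points are filled in orange. On the right no point is filled.

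Genes that make, trim and bind collagen moved in both directions. Their calls stand beside the 6.91% of all genes that passed higher and the 9.71% that passed lower. Among 17 genes of chain modification and folding, 3 rose in MRC1+ TAMs, the lysyl hydroxylase Plod1 (log2 fold change 0.82 ± 0.08, adjusted p = 0.000398), the prolyl hydroxylase subunit P4ha2 (0.68 ± 0.11, adjusted p = 0.00544) and Crtap (0.54 ± 0.13, adjusted p = 0.0295). The collagen galactosyltransferase Colgalt1 fell by 0.40 (adjusted p = 0.0148), a call lost with library totals. The median of this list was 0.58. Of 12 tested genes of export, trimming and cross-linking, the N-propeptidase Adamts14 rose (1.05 ± 0.22, adjusted p = 0.0147) and Mia2, which helps large cargo leave the endoplasmic reticulum, fell by 0.35 (adjusted p = 0.0241), a call also lost with library totals. The median was 0.63, and Pcolce2 and Adamts2 at 1.04 ± 0.32 and 0.84 ± 0.28 did not pass.

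Of 10 tested proteoglycans and glycoproteins that bind fibrils, the fibronectin gene Fn1 fell by 0.97 (adjusted p = 0.0457) and none rose. The Fn1 libraries of the groups overlapped, and its call was lost in 6 of 14 alternatives, with adjusted p up to 0.244. The median was 0.53, and the proteoglycan gene Bgn at 0.66 ± 0.29 and Tnxb at 0.66 ± 0.34 did not pass. Of 10 tested collagen receptors, the integrin chain Itga1 fell by 1.05 (adjusted p = 0.000291) and the inhibitory receptor Lair1 by 0.47 (adjusted p = 0.0395, lost in 6 of 14 alternatives), while Adgrg1, a receptor that binds type III collagen, rose (1.04 ± 0.23, adjusted p = 0.0195). The calls of Plod1, P4ha2 and Itga1 held in all 14 alternatives, while those of Crtap, Colgalt1, Mia2, Adamts14 and Adgrg1 were lost in 3 to 5, mostly with 1 library left out. Mrc2, an endocytic collagen receptor related to MRC1, was at 0.81 ± 0.25 and did not pass. The median of all 15622 genes, set against these, was 0.01.

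Marker genes of other cell types differed too, and their calls by edgeR stand beside the same shares, 6.91% of all genes higher and 9.71% lower. Of 6 tested pericyte and smooth muscle markers none passed by edgeR, with 2 at an unadjusted p under 0.05 and 1 by DESeq2, and Cspg4 at 1.49 ± 0.44 came nearest (adjusted p = 0.0523). The endothelial list was split, with Cdh5 and Ptprb higher and Pecam1, Kdr and Vwf lower in MRC1+ TAMs. Of 6 tested carcinoma and epithelial markers, Krt8, Krt18, Krt19 and Hmga2 were higher and Cdh1 and Epcam lower. All 11 genes named in the last 2 lists passed, but Pecam1, Cdh1 and Epcam alone did so in all 14 alternatives, and the others lost the call in 3 to 9. Of 8 macrophage markers 2 rose and 1 fell, with a median log2 fold change of -0.12. Their part in the collagen results was not tested.

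The second comparison set TAMs with miR-511-3p against those with its mutated form and asks what overexpression of the microRNA changes. No collagen passed. Most members had lower means in miR-511-3p TAMs, with a median log2 fold change of -0.92 over the 24 tested collagens against 0.00 over all genes, but in every one the libraries of the groups overlapped, where 2.79% of all genes had no overlap and lay higher and 3.59% lower. Of the 24, 5 lay above 0, against 51.3% of all genes. Within same-numbered pairs 16 members were lower in the miR-511-3p library of all 3 pairs, where 13.3% of all genes were, and 1, Col9a3, was higher in all 3, where 11.6% were. The 16 comprised every tested chain of types III, IV, V and VI, with Col1a1, Col7a1, Col8a1, Col12a1, Col16a1 and Col23a1. The labels do not state these pairs, and the first miR-511-3p library correlated more with the second mutated library than with the first. Of the 24 tested, 0 passed in edgeR's test, as did 0 of 14054 genes in all (0%), and every adjusted p of a collagen was 0.999883. At an unadjusted p under 0.05 stood 3 members, all lower (Col4a2, Col6a3 and Col18a1), where 1.86% of all genes lay lower. DESeq2 also passed 0 collagens, with 8 of 39 at an unadjusted p under 0.05, all lower, where 1.56% of all genes were.

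A microRNA acts on messages that carry a match to its seed, bases 2 to 8, in the 3′ UTR. The mature miR-511-3p of RefSeq (GRCm38.p6) lies at chr2:14261051-14261072 on the plus strand, in an intron of Mrc1, and is shown with its seed in capitals.
miR-511-3p: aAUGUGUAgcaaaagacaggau

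Matches to the seed were searched in the longest annotated 3′ UTR of each gene (GENCODE M21) as TACACATA, TACACAT or ACACATA, the first counted before the others. A match was found in 12 of 44 collagens, a share of 27.3%, against 19.5% of 19642 genes. Of these 12, 5 were tested. The sites of these 5 are shown in 30 bases of the transcript each, with the match in capitals. They are the tested collagens on which the microRNA could act directly by this rule. The rest of the 12 had too few reads to be tested.
Col5a2: cttaacctaggACACATAggtccccttgtg
Col9a3: atacagtttatTACACATAaagcactgcct
Col15a1: tttatatatatTACACATctgtcaaaagag
Col20a1, first site: gtctgtctctgTACACATgtgtctctatga
Col20a1, second site: cctatgtacacACACATAtgcattctaaaa
Col23a1: tccccagactgTACACATgcattccttgct

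The 5 tested collagens with a site had a median log2 fold change of -0.16, and 4 of them lay below 0. The 19 tested collagens without a site had a median of -1.14, and 15 lay below 0. Col9a3, with the longest match, was at 0.37 ± 0.29, Col15a1 at -0.16 ± 0.29, Col20a1 at -0.02 ± 0.26, Col5a2 at -0.68 ± 0.84 and Col23a1 at -1.38 ± 0.69. None of these passed, and the difference between members with and without a site was not tested.

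Among the fibril-forming collagens Col3a1 stood at 60.3, 58.9 and 175 CPM in miR-511-3p libraries, against 119, 114 and 467 CPM in mutated miR-511-3p libraries. The third library was the highest in both groups, and the third miR-511-3p library lay above the first and the second mutated library. The log2 fold change was -1.25 ± 0.67. Col5a1 stood at 7.22, 8.39 and 23.3 CPM in miR-511-3p libraries, against 17.0, 18.1 and 67.0 CPM in mutated libraries, with a log2 fold change of -1.38 ± 0.66, and Col5a3 at 2.96, 2.93 and 4.96 CPM in miR-511-3p libraries, against 4.80, 3.47 and 10.97 CPM in mutated libraries, with -0.82 ± 0.44. Both repeated the order of Col3a1. Col5a2 stood at 0.870, 1.02 and 4.89 CPM in miR-511-3p libraries, against 1.63, 1.69 and 7.64 CPM in mutated libraries. Col1a1 stood at 5.22, 6.36 and 26.1 CPM in miR-511-3p libraries, against 10.48, 10.46 and 37.7 CPM in mutated libraries, with a log2 fold change of -0.63 ± 0.74. Its partner Col1a2 was highest in the third miR-511-3p library, with 1.74, 3.05 and 15.1 CPM in miR-511-3p libraries, against 5.01, 2.75 and 8.62 CPM in mutated libraries, and had a log2 fold change of 0.29 ± 0.79.

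Col4a1 stood at 15.7, 14.7 and 34.7 CPM in miR-511-3p libraries, against 31.6, 27.7 and 84.9 CPM in mutated libraries, with a log2 fold change of -1.14 ± 0.51. Col4a2 stood at 7.48, 7.30 and 15.8 CPM in miR-511-3p libraries, against 16.5, 14.3 and 39.5 CPM in mutated libraries, with -1.20 ± 0.47 (unadjusted p = 0.0366 by edgeR). The third miR-511-3p library lay above the second mutated library in both. Col6a1 stood at 9.79, 10.005 and 25.7 CPM in miR-511-3p libraries, against 20.6, 22.1 and 72.3 CPM in mutated libraries, with -1.33 ± 0.59. Col6a2 stood at 6.39, 6.51 and 16.8 CPM in miR-511-3p libraries, against 12.9, 12.8 and 47.2 CPM in mutated libraries, with -1.29 ± 0.62. Col6a3 stood at 9.79, 10.1 and 24.5 CPM in miR-511-3p libraries, against 22.9, 25.1 and 86.9 CPM in mutated libraries, with -1.60 ± 0.61 (unadjusted p = 0.0331). For the type VI chains the third library of each group was more than 2-fold above the others.

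Col16a1 stood at 3.70, 4.14 and 10.3 CPM in miR-511-3p libraries, against 8.42, 7.11 and 34.2 CPM in mutated libraries, with a log2 fold change of -1.45 ± 0.69. Col12a1 stood at 0.826, 0.715 and 3.16 CPM in miR-511-3p libraries, against 2.20, 2.03 and 5.34 CPM in mutated libraries, with -1.01 ± 0.64. Col14a1 departed from this order. It stood at 90.4, 67.9 and 107 CPM in miR-511-3p libraries, against 70.9, 77.8 and 73.6 CPM in mutated libraries, with a log2 fold change of 0.25 ± 0.15, and the third libraries did not stand apart by more than 2-fold. Col18a1 stood at 27.3, 17.6 and 24.4 CPM in miR-511-3p libraries, against 26.6, 32.4 and 44.6 CPM in mutated libraries, with -0.58 ± 0.22 (unadjusted p = 0.0350 by edgeR), and only the first miR-511-3p library reached the range of the mutated ones.

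Col8a1 stood at 1.70, 1.09 and 3.495 CPM in miR-511-3p libraries, against 4.73, 1.74 and 9.52 CPM in mutated libraries, with a log2 fold change of -1.34 ± 0.65. Col23a1 stood at 0.826, 0.752 and 1.95 CPM in miR-511-3p libraries, against 1.39, 1.48 and 6.40 CPM in mutated libraries. Col7a1 stood at 2.13, 1.62 and 2.82 CPM in miR-511-3p libraries, against 2.17, 2.20 and 6.11 CPM in mutated libraries, with -0.67 ± 0.45. In each the third mutated library was the highest of the 6. Of the lower members, Col4a5 averaged 1.04 ± 0.631 CPM in miR-511-3p and 3.41 ± 4.11 CPM in mutated TAMs (SD, n = 3 each), where the third mutated library alone held 8.16 CPM. Col11a2 was level at 0.01 ± 0.17, and Col27a1 was at 0.33 ± 0.39. Col10a1, Col17a1 and Col24a1 had too few reads to be tested here.

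The size of these differences depended on whether the third libraries were left out singly or as a pair. Without the third mutated library the median of the 24 tested collagens was -0.22, none was under an unadjusted p of 0.05 and 9 lay above 0. Without the third miR-511-3p library it was -1.75, with 13 of 25 tested members lower at an unadjusted p under 0.05, where 3.06% of all genes were. Without the second mutated library it was -1.33, with 13 of 26 lower at the same unadjusted p, where 3.47% of all genes were. With the third library of both groups left out, an alternative chosen after seeing the data, the median was -0.83 and 12 of 24 were lower at an unadjusted p under 0.05, where 2.46% of all genes were. With the replicate number as a block 16 of 24 were under it, all lower, where 4.43% of all genes were, and the lowest adjusted p of a collagen was 0.0945. The median with the block was -0.91. Without the first or the second miR-511-3p library it was -0.84 and -0.69, with 1 member under an unadjusted p of 0.05 in each, a lower and a higher one in that order. In those fits 277 of 14429 and 155 of 14325 genes were under it in either direction. Without the first mutated library the median was -1.14, with 10 of 24 collagens lower at an unadjusted p under 0.05. There 740 of 14275 genes were under it in either direction. In none of these fits did a collagen pass.

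In the other lists no gene passed either in edgeR's test. All 15 tested fibroblast markers lay below 0, with a median of -1.42 and 5 at an unadjusted p under 0.05 by edgeR (6 of 16 by DESeq2), where 1.86% and 1.56% of all genes were lower by these tools, and 0 passed by either. Lum and Dcn, small proteoglycans of fibrils, were at -1.61 ± 0.61 and -1.42 ± 0.60. The median was -0.87 for 11 genes of export, trimming and cross-linking, -1.18 for 9 fibril-binding genes, -0.34 for 9 collagen receptors and -0.11 for 14 genes of chain modification and folding. The pericyte, endothelial, carcinoma and macrophage lists had medians of -0.39, -0.06, -0.88 and 0.07, over 3, 6, 4 and 8 tested genes. No gene of these 8 lists passed by edgeR, with 1 or 2 at an unadjusted p under 0.05 in the export, fibril-binding, receptor, pericyte and carcinoma lists, read against the same shares, and 0 in the folding, endothelial and macrophage lists. DESeq2 passed 0 of them as well. The part of fibroblasts in the collagen levels was not tested.

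Chains of a collagen type kept different proportions in the libraries. The ratio of Col4a1 to Col4a2, per kilobase of exon, lay between 1.70 and 2.50 in all 12 libraries while the levels of the chains ranged 20.8-fold and 15.9-fold. It was 2.33 to 2.49 in MRC1+ and 2.37 to 2.50 in CD11c+ libraries, and 1.79 to 1.95 in miR-511-3p and 1.70 to 1.91 in mutated libraries. Type I collagen is built from more Col1a1 than Col1a2 chains. Its ratio was 2.07 to 2.79 in MRC1+ and 2.23 to 2.95 in CD11c+ libraries, and 3.27 to 5.68 in miR-511-3p and 3.96 to 8.28 in mutated libraries, where Col1a2 rested on as few as 40 reads.

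Within type VI collagen the ratio of Col6a1 to Col6a3 lay between 1.52 and 2.87 in all libraries. The ratio of Col6a2 to Col6a3 was 0.297 to 0.530 in MRC1+ and 0.321 to 0.468 in CD11c+ libraries, and 0.924 to 0.984 in miR-511-3p and 0.731 to 0.809 in mutated libraries. Every overexpression library thus lay above every sorted library for Col1a1 to Col1a2 and for Col6a2 to Col6a3. For Col4a1 to Col4a2 every overexpression library lay below every sorted library. For Col6a1 to Col6a3 they overlapped. These ratios are described without a test, and the sorted and the overexpression libraries also differed in the share of reads that fell in no gene. The exon length counts all annotated exons, some of them from rare transcripts, and sets the ratio's level but not its order over libraries.

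**Figure D4:**
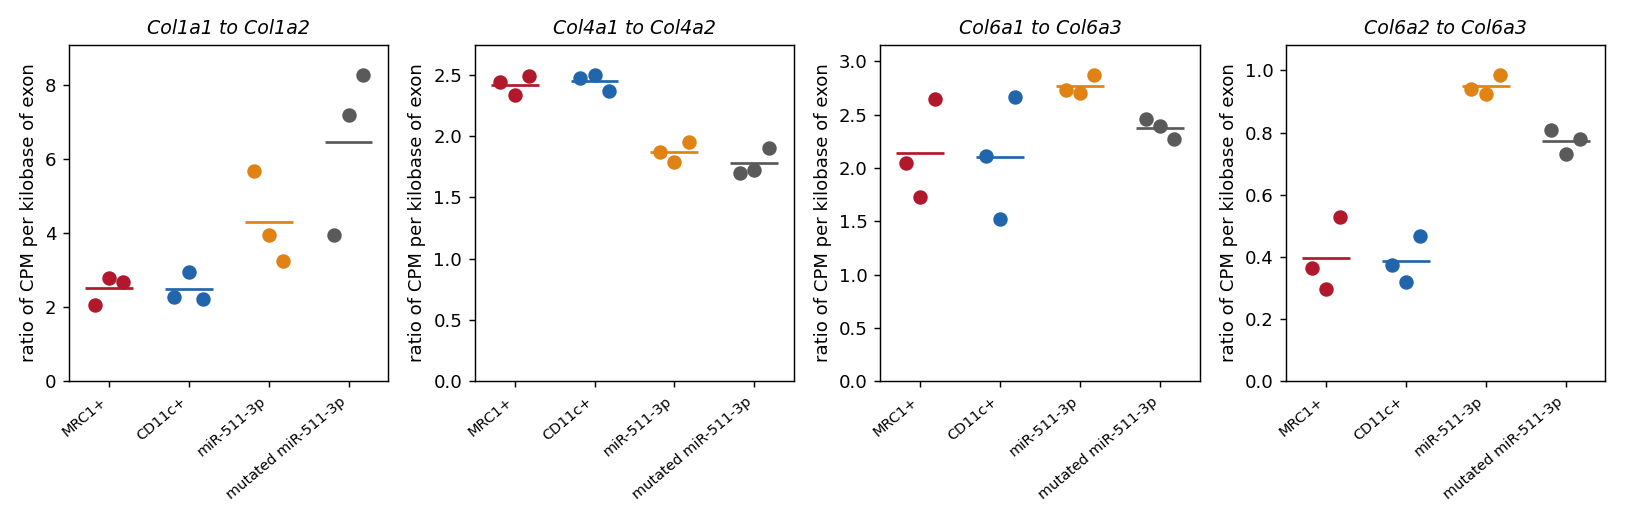
Ratio of the CPM per kilobase of exon of 2 chains of a collagen type in each library (points) with the group mean (line), for Col1a1 to Col1a2, Col4a1 to Col4a2, Col6a1 to Col6a3 and Col6a2 to Col6a3. Col4a1 to Col4a2 lies between 1.70 and 2.50 throughout, with the 6 overexpression libraries below the 6 sorted libraries. For Col1a1 to Col1a2 and for Col6a2 to Col6a3 the overexpression libraries lie above the sorted libraries.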

How the data were processed

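RNA was sequenced from 12 samples of mouse TAMs after library preparation with an Illumina TruSeq RNA kit, per the labels' protocols. The authors deposited raw counts, 1 whole number for each Ensembl gene. As tools, TopHat 1.2.0 with Bowtie, SAMtools 0.1.12a and HTSeq are listed in the submitters' processing notes, with mm9 and NCBIM37 as builds. How HTSeq was set, strand included, is not given in the sources, so genes that overlap or have near-identical copies have uncertain counts. The 5 summary entries of each table were left out. They held 40.2% to 44.8% of the reads in sorted and 23.1% to 26.0% in overexpression libraries.

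Of 36439 identifiers, 31819 found a symbol in GENCODE M21 (GRCm38). Both comparisons used edgeR 4.0.16 (glmQLFit, glmQLFTest) in R 4.3.3 on their 6 libraries, with TMM, filterByExpr and Benjamini-Hochberg adjustment at 0.05 over all genes tested. The steps were tested on simulated counts with the same spread for every gene and no library that stood apart. That test therefore does not cover the libraries that stood apart here. CPM rest on 10824918 to 27890433 reads per library. Members with a mean of at least 1 CPM in a group were named, and those at 10 CPM or more, or passing, are given in every library. The members and lists were chosen with earlier results of these data known. Within groups libraries differed beyond sampling noise (chi-square per degree of freedom 9.18 to 33.0). Same-numbered libraries deviated together across genes, with correlations of 0.104, 0.337 and 0.250 in the sorted and 0.147, 0.258 and 0.462 in the overexpression groups, which meets the limit of 0.1 for pairs. The main tests have no block, and fits with the replicate block are alternatives. This pairing comes from the data and not the labels, and is borderline in the sorted groups, since with log2(CPM + 1) the first sorted pair had 0.0871. Alternatives were DESeq2 1.42.0, other scalings and filters, a fit of all 12 libraries, the replicate block and leaving out each library. Mia3 was not analysed here.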

Additional observations from a re-analysis of the deposited data

How the results depend on the processing

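The number of collagens that passed between MRC1+ and CD11c+ TAMs was 2 with TMM, the DESeq2 size factors, upper-quartile scaling, library totals, the stricter filter and the fit of all 12 libraries, 3 with DESeq2, 6 without a filter on low counts and 4 with the replicate block, and it ranged from 1 to 20 over the fits that left out 1 library each. The 6 without a filter were Col4a2, Col5a3, Col7a1, Col14a1, Col16a1 and Col18a1. With library totals the median log2 fold change of all genes was 0.14, against 0.01 with TMM, and that of the collagens 0.63. The split of all genes that passed was then 1636 higher and 1110 lower, against 1080 higher and 1517 lower with TMM. Between miR-511-3p and mutated miR-511-3p TAMs the number stayed 0 in all alternatives, and the block changed no call there. Signs changed only for genes that did not pass. In the first comparison these were Col10a1 (-0.0024 without the second MRC1+ library), Col11a2 (-0.023 without the third MRC1+ and -0.064 without the first CD11c+ library), Col3a1 (-0.014 without the second CD11c+) and Col27a1 (0.39 without the third CD11c+). In the second, Col11a2 took -0.00018 with library totals, -0.039 without the third miR-511-3p library, -0.016 and -0.079 without the second and the third mutated library and -0.13 without the third library of each group. Col20a1 took 0.00043 with the block, 0.0069 and 0.058 without the first and the second miR-511-3p library, 0.27 without the third mutated library and 0.15 without the third of each group. Col1a2 took -0.076 with the block, -1.19 without the third miR-511-3p, -0.026 without the second mutated and -0.69 without the third library of each group. Col15a1 took 0.092 without the second miR-511-3p library. Without the third mutated library Col1a1 took 0.27, Col5a2 0.45, Col7a1 0.0039 and Col4a5 0.015. The far ends of their ranges over the fits without 1 library were 0.42 for Col10a1, 0.12 for Col11a2, 1.35 for Col3a1 and -0.50 for Col27a1 in the first comparison, and -0.17 for Col20a1, 0.77 for Col1a2, -0.41 for Col15a1, -1.75 for Col1a1, -1.95 for Col5a2, -0.93 for Col7a1 and -2.31 for Col4a5 in the second. The cause of these changes was not tested. Per kilobase of coding sequence the ratio of Col6a2 to Col6a3 averaged 1.92 in miR-511-3p and 1.56 in mutated libraries, and 0.802 in MRC1+ and 0.784 in CD11c+ libraries. The 17 members under 1 CPM rest on 55 reads or fewer over all libraries, and differences in them were not detectable at this depth.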
